A study of Mus musculus with 9 samples.

Results

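Spi1, Spic, Ikzf1, Pou2f2, Hcls1, Runx1, Cebpa, Cebpb and Maf are 9 of the 22851 genes in the deposited count matrix of mouse heart RNA. They were taken by gene symbol as regulators of myeloid and lymphoid cells, with earlier results of these data known. From these same libraries the study had listed transcription factors and co-factors changed in DCM and reversed in SPM. Spi1, Ikzf1, Pou2f2 and Hcls1 are on that list, so their directions, and the counts and medians that include them, are not independent of it. All 9 had counts, and all 9 passed the filter on low counts over the 9 libraries. Spic, the least abundant, did not pass it among the SPM and DCM libraries and was not tested there.

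Blood cells of each lineage are specified by small sets of transcription factors. Many of these genes stay active in the mature cell, so leukocytes that live in an organ or pass through it can be a source of their RNA. The source of the RNA measured here was not tested. PU.1, encoded by Spi1, acts with C/EBP factors and RUNX1 in monocytes, macrophages and granulocytes, while Ikaros and OCT2 are best known from lymphocytes. The healthy heart holds resident macrophages and smaller numbers of other leukocytes. Cebpa, Cebpb and Maf are also active outside the blood, the C/EBP genes for example in adipocytes and hepatocytes, so the label of blood-lineage genes covers only part of where they are transcribed. HCLS1 does not bind DNA by itself. It is an actin-regulating adaptor of hematopoietic cells and a relative of cortactin.

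RNA had been sequenced in 3 libraries each of CK, DCM and SPM mice, all male animals of the strain C57BL/6, given as C57BL/6J in the methods. CK mice were normal controls that received citrate buffer. DCM mice received a single injection of streptozotocin, which destroys pancreatic beta cells and gives a model of type 1 diabetes with diabetic cardiomyopathy, and were kept for 12 weeks. SPM mice received the same injection and were kept for 12 weeks, with spermine given before and after it. Spermine without streptozotocin was not among the groups, so spermine is compared only on the diabetic background.

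The methods speak of single mice in one passage and of mixed hearts in another, so a library may be a single animal or a pool, and p-values measure only the spread between libraries. Total counts lay between 29901300 and 39718680 per library. The tissue label names the heart whereas the extraction protocol names retinas. Cardiomyocyte markers summed to 37696 to 51065 CPM per library (counts scaled to equal library totals), and 6 measured photoreceptor markers to 0.422 to 1.67 CPM, with Crx at 0 in 8 libraries. The mitochondrial share of counts ranged over 13.7% to 16.2% for CK libraries, 15.5% to 18.9% for DCM and 21.01% to 21.09% for SPM. SPM replicate 2 stood apart from the other libraries. In a check limited to genes above a minimum mean count, its value was intermediate to those of SPM replicates 1 and 3 for 69.2%. Modelled as 44% of replicate 1 plus replicate 3, it deviated from that blend by a median square of 0.602 in units of counting noise, where the same check gave 2.46 to 6.64 for the other 8 libraries. Its independence is in doubt, and calls on SPM are given with and without it.

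Of the 9 genes, 7 had a reference promoter in RefSeq (mouse GRCm38.p6), 9 start sites in all. The 250 bases before each start were searched on both strands for GAGGAA (PU.1 core), TTGCGCAA and TTGCNNAA (C/EBP), TGTGGT (RUNX), ATGCAAAT (octamer), TGCTGAC (MAF) and TGGGAA (Ikaros). The 4 windows shown belong to the gene with the largest fold change (Spic), to a pair of genes with every DCM library below every CK library and a match (Hcls1 and Runx1), and to Cebpb, whose estimate had the opposite sign, although none of these 3 was called in DCM compared to CK. Each is written 5′ to 3′ on the gene's strand, and capitals mark a match.
Hcls1, chr16:36934733-36934982, plus strand: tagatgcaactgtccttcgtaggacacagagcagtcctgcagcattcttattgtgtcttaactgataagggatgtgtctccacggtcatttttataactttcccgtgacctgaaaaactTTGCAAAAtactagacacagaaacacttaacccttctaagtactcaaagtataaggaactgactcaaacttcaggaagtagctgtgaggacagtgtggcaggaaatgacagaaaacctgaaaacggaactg
Runx1, chr16:92697330-92697579, minus strand: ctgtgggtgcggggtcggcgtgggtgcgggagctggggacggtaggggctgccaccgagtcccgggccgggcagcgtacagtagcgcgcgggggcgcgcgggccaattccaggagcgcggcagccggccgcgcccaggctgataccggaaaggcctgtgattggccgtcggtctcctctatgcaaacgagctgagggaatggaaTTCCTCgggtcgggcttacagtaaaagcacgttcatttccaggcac
Spic, chr10:88683024-88683273, minus strand: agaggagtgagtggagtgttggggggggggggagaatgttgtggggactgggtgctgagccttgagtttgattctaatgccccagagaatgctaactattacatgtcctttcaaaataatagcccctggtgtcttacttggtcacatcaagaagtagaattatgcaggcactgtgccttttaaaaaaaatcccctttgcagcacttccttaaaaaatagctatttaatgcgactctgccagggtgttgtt
Cebpb, chr2:167688665-167688914, plus strand: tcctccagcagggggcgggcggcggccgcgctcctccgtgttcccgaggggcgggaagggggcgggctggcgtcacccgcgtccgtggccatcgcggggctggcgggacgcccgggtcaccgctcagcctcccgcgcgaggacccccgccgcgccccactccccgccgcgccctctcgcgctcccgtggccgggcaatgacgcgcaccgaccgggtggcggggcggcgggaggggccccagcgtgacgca
In GENCODE M21 the Hcls1 and Cebpb windows end at the first base before the gene, and those of Runx1 and Spic lie inside the gene without touching an exon. The Hcls1 match is TTGCNNAA, which starts 131 bases before the start site, and that of Runx1 is GAGGAA on the opposite strand, 46 bases before it. Pou2f2 held TGTGGT at 91 bases before its start, followed directly and without overlap by GAGGAA on the opposite strand at 85 bases. Of 32536 distinct promoter windows, 23.4% held GAGGAA, 14.0% TGTGGT, 9.57% TTGCNNAA, 21.6% TGGGAA, 3.79% TGCTGAC, 1.62% ATGCAAAT and 0.166% TTGCGCAA. The remaining windows of these genes, both Ikzf1 windows and those of Spic, Cebpa, Cebpb and the upstream start of Runx1, held none of the letters.

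Per unit of transcript length (FPKM), the genes differed more than 10-fold in level. Hcls1 was the most abundant in CK with 11.9 ± 1.79 FPKM (mean ± SD, n = 3), followed by Spi1 with 7.60 ± 2.34 and Cebpa with 5.84 ± 0.695. Maf (1.57 ± 0.184), Ikzf1 (1.42 ± 0.328) and Cebpb (1.19 ± 0.428) came next, and then Runx1 (0.691 ± 0.0441), Pou2f2 (0.297 ± 0.142) and Spic (0.221 ± 0.0536). In CK the FPKM of neighbours in this order overlapped between libraries except for Cebpa with Maf and Runx1 with Pou2f2. The order was the same in SPM, where no neighbours overlapped. In DCM Cebpb moved up to the fourth place with 1.65 ± 0.642 FPKM, above Maf with 1.37 ± 0.275, which it overlapped. Over the 9 libraries, the mean FPKM of Hcls1 stood at percentile 70.7 of the genes tested, that of Spi1 at 59.3, that of Cebpa at 53.9 and that of Spic at 2.27.

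**Figure D1:**
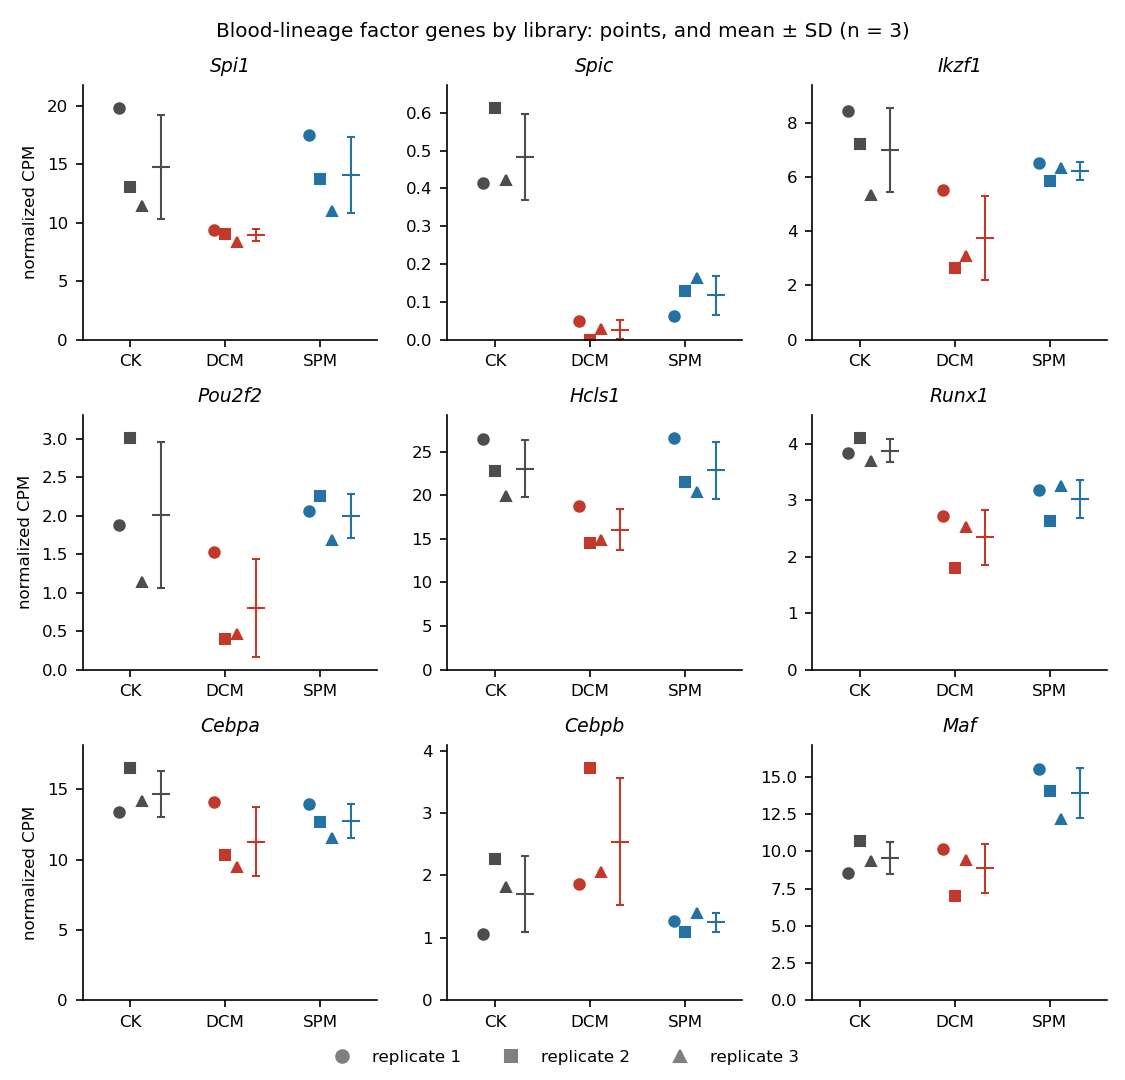
Normalized CPM (vertical axis, linear, from 0) of each of the 9 genes in CK, DCM and SPM. Points are libraries, shaped by replicate number, and bars are mean ± SD (n = 3). Spi1, Spic, Hcls1 and Runx1 had every DCM library below every CK library, Cebpb had its highest value in DCM replicate 2 (3.72), and Maf was highest in the SPM libraries (12.2 to 15.5).

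In DCM compared to CK, Spi1 and Spic were downregulated and no gene of the 9 was upregulated. A gene was called at a Benjamini-Hochberg adjusted p below 0.05 over all genes tested and a fold change of at least 1.5 in edgeR's quasi-likelihood test. These were 2 of 9 genes tested, where 4.34% of all 14402 genes were called (2.03% higher and 2.31% lower). Spic passed the filter on low counts through its CK libraries alone, so it could be called only as lower. By the adjusted p alone 3 passed, against 10.4% of all genes. The estimate was below 0 for 8 of the 9, with a median log2 fold change of -0.72 against -0.00 for all genes. The median and the counts describe the 9 genes and are no test of them as a group. Every DCM library lay below every CK library for 4 genes, as did 14.8% of all genes tested, and the other 5 overlapped, where 29.3% of all genes did not overlap in either direction (14.5% higher in DCM). In whole-heart RNA, fewer cells of a type and less RNA per cell cannot be told apart.

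In SPM compared to DCM, Spi1 and Maf were upregulated and Cebpb was downregulated, 3 of 8 genes tested, where 3.59% of all 14493 genes were called (2.7% higher and 0.89% lower). Every SPM library lay above every DCM library for 5 of the 8 and below for 1, against 19.7% and 19.5% of all genes tested (39.2% together). By the adjusted p alone 4 of the 8 passed, against 16.6% of all genes. The median log2 fold change of the 8 genes was 0.58 against 0.01 for all genes. None of the 9 was called without SPM replicate 2, nor without SPM replicate 1 or DCM replicate 2, and 4 were called without DCM replicate 1. Of all genes only 56 were called without SPM replicate 2 and 73 without DCM replicate 2, so those fits had little to call. Without SPM replicate 1, however, 456 of all 14786 genes were called. Without DCM replicate 1 the calls were 280 of 14901, against 521 of 14493 with all 6 libraries. Both comparisons use the same DCM libraries, so a low value in DCM gives a negative estimate in the first and a positive one in the second.

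In SPM compared to CK, Spic was the only gene of the 9 called, and it was lower. Here too it passed the filter on low counts through its CK libraries alone. Of all genes 9.21% were called (5.08% higher and 4.12% lower). By the adjusted p alone 2 passed, Spic and Maf, against 27.4% of all genes. The median of the 9 log2 fold changes was -0.17 against 0.00 for all genes, and SPM lay clear of CK for 3 genes, above for Maf and below for Spic and Runx1, against 46.3% of all genes (23.3% above and 23% below). In the test over the 3 groups together, 6 of the 9 passed an adjusted p of 0.05, where 32% of all genes did. These were Spic (adjusted p = 4.95e-03), Maf (0.0106), Hcls1 (0.0190), Spi1 (0.0290), Ikzf1 (0.0358) and Runx1 (0.0435), while Pou2f2 (0.0880), Cebpb (0.0882) and Cebpa (0.139) did not. Without SPM replicate 2, 3 passed, Spic among them, where 15.3% of all genes did. In this test, too, Spic passed the filter on low counts through its CK libraries alone. It therefore counts here only through the group where it was high.

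**Figure D2:**
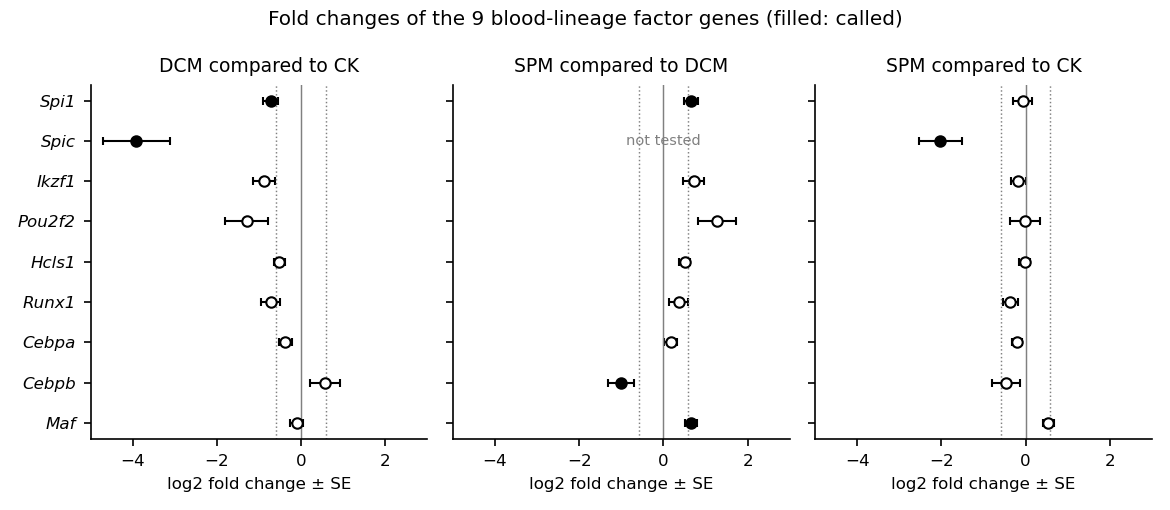
Log2 fold change ± SE (horizontal axis) of the 9 genes in the 3 comparisons. Filled points passed both limits and dotted lines mark a fold change of 1.5. Spic lay at -3.92 in DCM compared to CK and at -2.02 in SPM compared to CK, and Cebpb was the only gene of the 9 above 0 in the first comparison and below 0 in the second.

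The ETS factors come first. Spi1 lies on chromosome 2 (91082390 to 91115756, plus strand, GRCm38) and encodes PU.1, which is required for macrophages and B cells. Its normalized CPM was 19.9, 13.1 and 11.4 in CK, 9.42, 9.07 and 8.35 in DCM, and 17.5, 13.7 and 11.03 in SPM. The 3 DCM libraries were close together and lay below all 6 others, while the lowest CK and SPM libraries were near each other. Spi1 fell in DCM compared to CK by 0.72 on the log2 scale (SE 0.18, adjusted p = 0.0230). This call was lost without CK replicate 1 (-0.45), which held the highest value, and without any single DCM library (-0.76, -0.73 and -0.67 without replicates 1, 2 and 3). Spi1 rose in SPM compared to DCM by 0.66 (SE 0.15, adjusted p = 0.0230). With a library left out this call held only without SPM replicate 3 (0.80). It was lost without SPM replicate 2 (0.68, adjusted p = 0.0756), without SPM replicate 1 (0.46, which missed the fold limit) and without DCM replicates 1, 2 and 3 (0.69, 0.67 and 0.60). SPM and CK differed by -0.07 (SE 0.22, adjusted p = 0.833).

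Spic lies on chromosome 10 (88674772 to 88685015, minus strand) and encodes SPI-C, the relative of PU.1 that is required for the iron-recycling macrophages of spleen and bone marrow and is induced by heme. It had 13, 22 and 13 counts in CK, 2, 0 and 1 in DCM, and 2, 4 and 5 in SPM. Every CK library lay above every library of the other groups, and all values outside CK were at or near the limit of detection, since a count of 0 allows up to 3 counts, or 0.102 CPM in DCM replicate 2. Against CK, Spic passed the filter on low counts through the CK libraries alone. Only a lower level could therefore be called there, also with a library left out. Spic fell in DCM compared to CK by 3.92 on the log2 scale (SE 0.80, adjusted p = 8.31e-03), and the call held with each library left out (-4.65 to -3.47). Limma on log2 FPKM, which adds 0.1 to values this low, also called it but gave -1.52 (adjusted p = 0.0360). The ratio of summed counts, corrected for library size, was 0.0592 (3 against 48 counts, exact 95% interval 0.0118 to 0.184, counting error only). SPM was also lower than CK, where Spic fell by 2.02 (SE 0.51, adjusted p = 0.0210) and by 1.09 with limma (adjusted p = 0.0326). That ratio was 0.238 (0.112 to 0.465), and 0.226 (0.0863 to 0.503) without SPM replicate 2. The call was lost without SPM replicate 2 (-2.09, adjusted p = 0.105), without SPM replicate 1 (-1.71) and without CK replicate 2 (-1.81), and with DESeq2 (adjusted p = 0.0512). For SPM against DCM the ratio was 4.02 (11 against 3 counts, 1.06 to 22.5), and 3.82 (0.872 to 22.9) without SPM replicate 2. An upper limit above 22 and a lower one near 1 leave the size of that difference unresolved at this depth.

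Ikzf1, Pou2f2 and Runx1 encode regulators with wide roles in lymphocytes and blood stem cells. Ikzf1 (chromosome 11, 11685003 to 11772926, plus strand) encodes Ikaros, a zinc finger factor of lymphoid development. Its normalized CPM was 8.41, 7.22 and 5.32 in CK, 5.53, 2.64 and 3.08 in DCM, and 6.49, 5.85 and 6.31 in SPM. DCM replicate 1 overlapped CK, while all SPM libraries lay above all DCM libraries. The log2 fold change was -0.89 in DCM compared to CK (SE 0.26, adjusted p = 0.0526) and 0.72 in SPM compared to DCM (SE 0.24, adjusted p = 0.0675). Both passed with DESeq2 (adjusted p = 0.0143 and 0.0371), without the filter on low counts (4.03e-04 and 0.0475) and without DCM replicate 1 (-1.28 and 1.11). The first also passed with RLE normalization (adjusted p = 0.0485), with all 9 libraries in one fit (0.0369) and without CK replicate 3 (-1.05). The second was 0.76 without SPM replicate 2 (adjusted p = 0.147).

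Pou2f2 (chromosome 7, 25087344 to 25179726, minus strand) encodes OCT2, an octamer-binding factor of B cells that is also found in macrophages. It had 1.88, 3.01 and 1.14 normalized CPM in CK, 1.53, 0.406 and 0.469 in DCM, and 2.06, 2.25 and 1.69 in SPM. DCM replicate 1 was more than 3 times the other DCM libraries and overlapped CK, and no SPM library overlapped DCM. Neither difference passed the test, with -1.30 in DCM compared to CK (SE 0.52, adjusted p = 0.142) and 1.28 in SPM compared to DCM (SE 0.45, adjusted p = 0.0754). Both passed without DCM replicate 1 (-2.19 and 2.17), with adjusted p-values of 0.0238 and 0.0391. The first also passed without the filter on low counts (adjusted p = 0.0133) and the second with DESeq2 (0.0407). The second was 1.20 without SPM replicate 2 (adjusted p = 0.210).

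Runx1 (chromosome 16, 92601466 to 92826149, minus strand) encodes the RUNX factor needed for the first blood stem cells. Its values were tight in CK at 3.82, 4.10 and 3.70 normalized CPM, and stood at 2.71, 1.79 and 2.52 in DCM and 3.17, 2.64 and 3.25 in SPM. All DCM libraries and all SPM libraries lay below CK, and SPM overlapped DCM. The log2 fold change was -0.72 in DCM compared to CK (SE 0.23, adjusted p = 0.0632), 0.36 in SPM compared to DCM (SE 0.22, adjusted p = 0.276) and -0.36 in SPM compared to CK (SE 0.17, adjusted p = 0.151). Only the first passed in an alternative, with all 9 libraries in one fit (adjusted p = 0.0388).

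Hcls1 (chromosome 16, 36934983 to 36963212, plus strand) had 26.4, 22.8 and 19.9 normalized CPM in CK, 18.7, 14.5 and 14.9 in DCM, and 26.6, 21.5 and 20.4 in SPM. The DCM libraries lay below all others, and CK and SPM covered nearly the same range. The log2 fold change was -0.52 in DCM compared to CK (SE 0.13, adjusted p = 0.0232) and 0.50 in SPM compared to DCM (SE 0.13, adjusted p = 0.0278). Both passed the limit on the adjusted p and missed that on the fold change. Both limits were passed without DCM replicate 1 in both comparisons (-0.64 and 0.63), in the first also without CK replicate 3 (-0.61) and with limma on log2 FPKM (-0.60), and in the second with a correction for GC content (0.66). The adjusted p was above 0.05 in the first without CK replicate 1 or 2 or DCM replicate 2 or 3, and in the second with limma and without DCM replicate 2 or 3, SPM replicate 1 or SPM replicate 2 (0.55, adjusted p = 0.0759). SPM and CK differed by -0.02 (SE 0.13).

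The C/EBP genes follow. Cebpa (chromosome 7, 35119293 to 35121928, plus strand) encodes the factor that starts granulocyte and monocyte development and that adipocytes and hepatocytes also use. It had 13.4, 16.5 and 14.1 normalized CPM in CK, 14.1, 10.3 and 9.44 in DCM, and 13.9, 12.7 and 11.6 in SPM. The ranges of all 3 groups overlapped, and none of the 3 comparisons passed (log2 fold changes of -0.38, 0.17 and -0.21, in the order above, with adjusted p = 0.149, 0.444 and 0.195). CK replicate 2, the highest for Cebpa, also had the highest summed adipocyte markers (163.2 CPM, against 39.7 to 97.0 in the other 8 libraries), and the part of these markers in the Cebpa values was not tested.

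Cebpb (chromosome 2, 167688915 to 167690418, plus strand) encodes a factor of inflammatory macrophages and of early adipocyte differentiation. It had 1.05, 2.26 and 1.82 normalized CPM in CK, 1.86, 3.72 and 2.05 in DCM, and 1.26, 1.09 and 1.40 in SPM. All SPM libraries lay below all DCM libraries, and DCM replicate 2 was far above the other 2. Cebpb fell in SPM compared to DCM by 1.01 on the log2 scale (SE 0.31, adjusted p = 0.0490). The call was lost with any single library left out (-1.21 to -0.64), with the GC correction (-0.70, adjusted p = 0.186), with all 9 libraries in one fit (adjusted p = 0.0646) and with limma on log2 FPKM (0.0562). In DCM compared to CK the difference was 0.56 (SE 0.35, adjusted p = 0.367), and 0.19 without DCM replicate 2. The Cebpb exons share 312 bases with Tmem189 on the opposite strand. The methods describe no step that marks strand, so reads from the shared stretch may not be told apart. Tmem189 had 0.616 to 1.26 CPM in CK libraries, 2.47 to 2.71 for DCM and 2.31 to 3.42 for SPM. The same limit holds for Maf (440 bases shared with Gm15655), Runx1 (106 with Gm26626) and Cebpa (51 with Gm45091). Gm45091 had 128 counts over the 9 libraries, and Gm15655 and Gm26626 have no row in the count matrix.

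Maf (chromosome 8, 115682942 to 115707794, minus strand) encodes c-MAF, a factor of resident macrophages and of helper T cells. It had 8.57, 10.7 and 9.37 normalized CPM in CK, 10.1, 7.01 and 9.41 in DCM, and 15.5, 14.1 and 12.2 in SPM. All SPM libraries lay above all others, and DCM and CK overlapped (-0.10, SE 0.16, adjusted p = 0.748). Maf rose in SPM compared to DCM by 0.65 on the log2 scale (SE 0.15, adjusted p = 0.0201). The estimate was the same without SPM replicate 2 (0.65, adjusted p = 0.0765), and the call was also lost without SPM replicate 1 (0.56, which missed the fold limit), without DCM replicate 2 (0.51), with the GC correction (0.61, adjusted p = 0.0543) and with limma on log2 FPKM (0.62, adjusted p = 0.0565). Against CK the SPM difference of 0.54 (SE 0.12, adjusted p = 0.0147) passed the limit on the adjusted p and missed that on the fold change, and without SPM replicate 2 it was 0.53 (adjusted p = 0.0618).

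**Figure D3:**
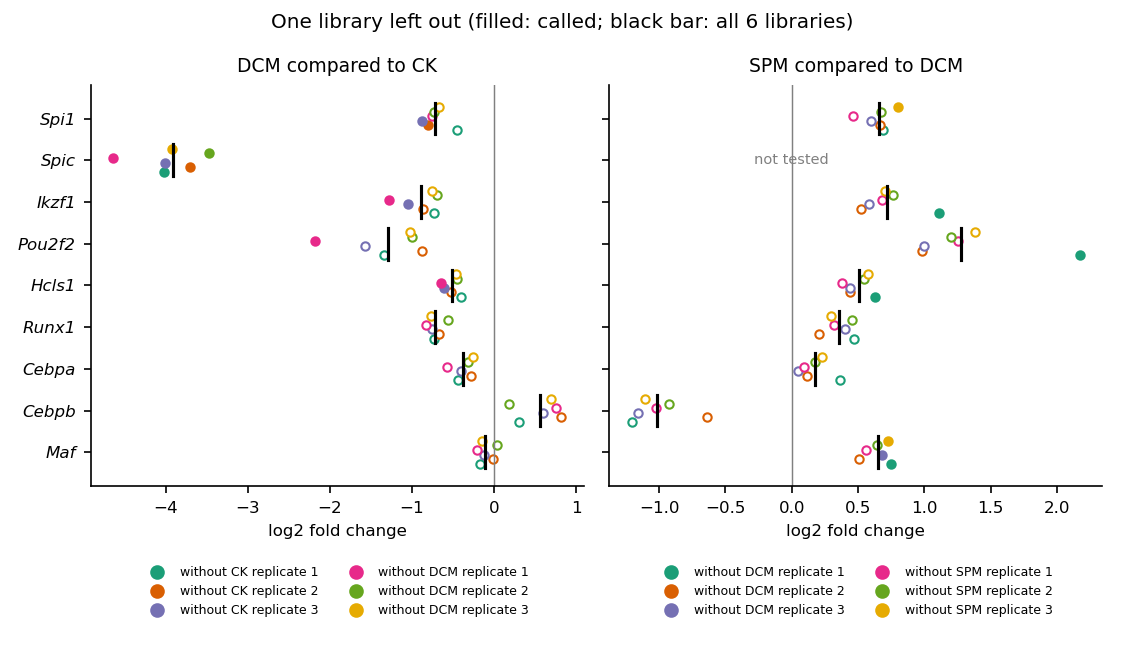
Log2 fold change (horizontal axis) of each gene with 1 library left out, coloured by that library, for the comparison of DCM with CK (left) and of SPM with DCM (right). Black bars are the fits to all 6 libraries and filled points were called. Spic stayed called in every fit at -4.65 to -3.47, whereas no Cebpb fit with a library left out was called.

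Leukocyte markers moved in the same comparisons. Of all genes, 4.34% were called in DCM compared to CK, 3.59% in SPM compared to DCM and 9.21% in SPM compared to CK. The 14 pan-leukocyte genes, which include the most abundant Lsp1 and Lcp1, both regulators of actin in white cells, summed to 206.1 to 302.7 CPM in CK libraries, 148.1 to 206.3 for DCM and 226.7 to 306.4 for SPM. In DCM compared to CK, 6 of 13 tested fell and none rose, with a median log2 fold change of -0.68. Of the same 13, 8 rose and none fell in SPM compared to DCM (median 0.72), and none was called in SPM compared to CK. Without SPM replicate 2 the 8 became 0. Macrophage markers, led by Csf1r and C1qa, summed to 581.7 to 758.5 CPM in CK libraries, 514.0 to 595.9 for DCM and 630.0 to 984.2 for SPM, with 3 lower and 1 higher of 16 in DCM compared to CK, and 9 higher of 16 in SPM compared to DCM (1 without SPM replicate 2). Against CK, SPM had 3 higher and 1 lower of 16 (3 higher without SPM replicate 2).

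The smaller lineages did not all move alike. T and NK cell markers (Cd4 and Lck the most abundant) summed to 13.3 to 21.9 CPM in CK libraries, 4.67 to 10.2 for DCM and 9.01 to 10.6 for SPM, with 3 of 13 lower in DCM compared to CK, 0 of 12 called in SPM compared to DCM and 2 of 12 lower in SPM compared to CK. B cell markers (Ighm and Blk) summed to 38.4 to 89.3, 23.1 to 41.5 and 30.8 to 38.1 CPM, with 2 of 9 lower, 0 of 8 called and 4 of 10 lower, in the same order. Neutrophil markers (S100a9 and Csf3r) summed to 5.68 to 25.9, 13.1 to 29.2 and 31.9 to 64.4 CPM, with 2 of 5 higher, 6 of 7 higher and 7 of 8 higher. The upper CK sum, in replicate 2, includes Ltf, which was very uneven in CK. Its CPM was 5.73 ± 9.68 in CK (mean ± SD, n = 3), against 0.149 ± 0.139 in DCM and 0.431 ± 0.195 in SPM. Elane and Mpo were at 0 in 6 and 7 libraries. In the same list, Ngp had a mean of 0.0199 CPM in CK, 0.0516 in DCM and 1.21 in SPM. Camp had 0.0108, 0.0643 and 0.106 CPM, in the same order. Ccr2, Chil3, Plac8 and Cd177, which monocytes express and of which Cd177 also marks neutrophils, rose in SPM compared to DCM by 1.24, 2.43, 2.08 and 2.46 on the log2 scale (adjusted p = 0.0192, 0.0145, 6.52e-03 and 0.0177). The first 3 of them also rose compared to CK (1.04, 3.70 and 0.98). Without SPM replicate 2, Ngp of the neutrophil markers and Plac8 of these 4 were called in SPM compared to DCM, and in SPM compared to CK 6 neutrophil, 2 B cell and 0 T and NK cell markers and, of these 4, Chil3.

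Markers of iron-recycling macrophages, the cells known for needing Spic, summed to 124.6 to 130.8 CPM in CK libraries, 133.2 to 143.2 for DCM and 141.4 to 143.5 for SPM. In DCM compared to CK 0 of 7 were called, in SPM compared to DCM 4 rose and 1 fell of 8, and in SPM compared to CK 4 of 8 rose (1 and 3 called without SPM replicate 2, all higher). The most abundant, Slc40a1 and Vcam1, are also made by other cells, and Treml4, a marker of the splenic cells, was at 0 in 8 libraries. Erythroid markers, led by Hbb-bs and Hba-a1, summed to 1543 to 3622 CPM in CK libraries, 1330 to 3284 for DCM and 759.2 to 1295 for SPM, with 0 of 5 called, 4 of 5 lower and 5 of 5 lower (0 and 3 lower in the comparisons with SPM without its replicate 2). Globin counts cannot be split reliably between near-identical copies, and the sum is less affected.

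Lists of other cell types gave these values beside the 9 genes, and their part in the results was not tested. Hepatocyte markers (Alb and Ahsg) summed to 31.0 to 356.6 CPM in SPM, highest in replicate 1, against 14.6 to 49.9 in CK and 27.7 to 32.1 in DCM, with 1 higher and 1 lower of 4, 4 of 5 higher and 1 of 7 higher. Fibroblast markers (Dcn and Col3a1) summed to 2017 to 2113, 1373 to 1464 and 1620 to 1688 CPM, with 3 of 7 lower in DCM and in SPM compared to CK and 0 of 7 called in SPM compared to DCM. For adipocyte markers (Cfd and Cidea) 1 of 6 rose in DCM compared to CK and no other call was made, and for mast cell markers (Kit and Mcpt4) Kit fell in DCM and in SPM compared to CK and Cpa3 rose in SPM compared to DCM. Platelet markers (Pf4 and Itga2b) gave 1 call, Gp9 lower in SPM compared to CK, as did endothelial markers (Cdh5 and Pecam1) with Tie1. Without SPM replicate 2, 2 hepatocyte markers were called in SPM compared to DCM and Cpa3 was not, and in SPM compared to CK the counts were as above except for Gp9, which was not called. Cardiomyocyte markers (Myh6 and Myl2) and the single retina marker tested (Sag) gave none.

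**Figure D4:**
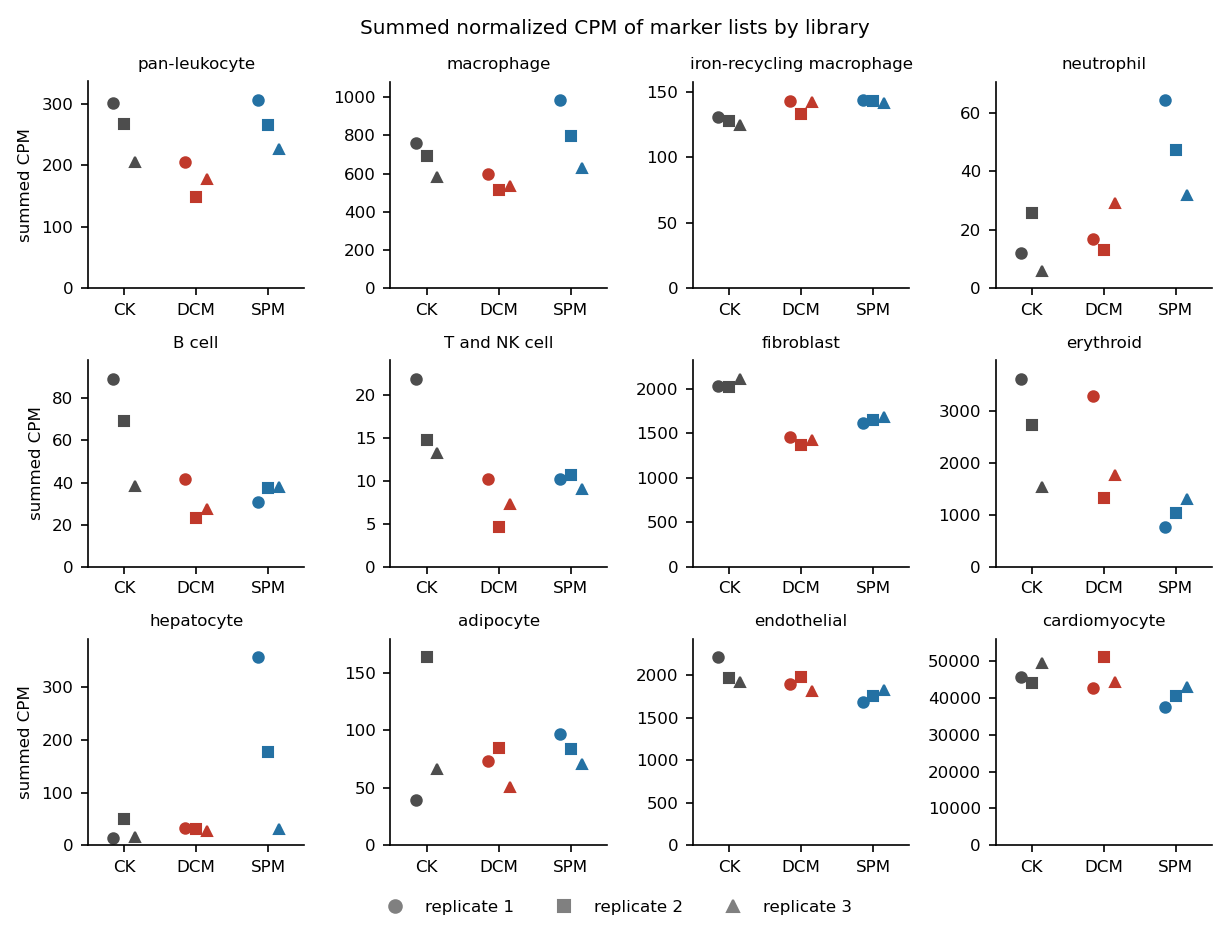
Summed normalized CPM (vertical axes, linear, from 0) of 12 marker lists in CK, DCM and SPM, with points for libraries shaped by replicate number. Pan-leukocyte sums ran from 148.1 to 206.3 in DCM and from 226.7 to 306.4 in SPM, neutrophil sums were highest in SPM (31.9 to 64.4), and hepatocyte sums reached 356.6 in SPM replicate 1.

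To set the genes beside leukocyte RNA, the counts of each gene were divided by the summed counts of the 14 pan-leukocyte genes (4376 to 9957 counts per library). Per 1000 of these, Spi1 stood at 48.8 to 65.6 in CK libraries, 45.7 to 61.2 for DCM and 48.7 to 57.2 for SPM, and Hcls1 at 85.1 to 96.5, 83.9 to 98.0 and 80.6 to 90.0. Ikzf1 (17.3 to 27.9 over the 9 libraries), Pou2f2 (2.64 to 11.2) and Runx1 (9.88 to 17.9) likewise overlapped between groups in all 3 comparisons, as Ikzf1 and Pou2f2 had in DCM and CK before the division. For all genes tested this ratio did not overlap for 40.7% in DCM compared to CK, 56.3% in SPM compared to DCM and 17.9% in SPM compared to CK. Nearly all of these were above CK in DCM (39.4% against 1.27% below) and below DCM in SPM (55.2% against 1.12% above).

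Spic, Maf, Cebpb and Cebpa did not overlap in at least 1 comparison. Spic stood at 1.37 to 2.29 per 1000 pan-leukocyte counts in CK libraries, 0 to 0.244 for DCM and 0.201 to 0.718 for SPM, below CK in all 6 other libraries, where 1.27% of all genes were below in DCM and 10.1% in SPM. Maf stood at 28.3 to 45.5 in CK libraries, 47.3 to 53.0 for DCM and 50.7 to 53.8 for SPM. It was above CK in both groups, although DCM and CK overlapped before the division, like 39.4% of all genes in DCM and 7.75% in SPM. For Cebpb, which was called in no fit of DCM compared to CK and overlapped there before the division, the ratio was 3.47 to 8.81 in CK libraries, 9.01 to 25.1 for DCM and 4.10 to 6.17 for SPM, so that DCM did not overlap either group. Cebpa stood at 44.1 to 68.6, 53.2 to 69.5 and 45.5 to 51.0, with SPM below DCM, as were 55.2% of all genes. These ratios are descriptions, with no test.

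**Figure D5:**
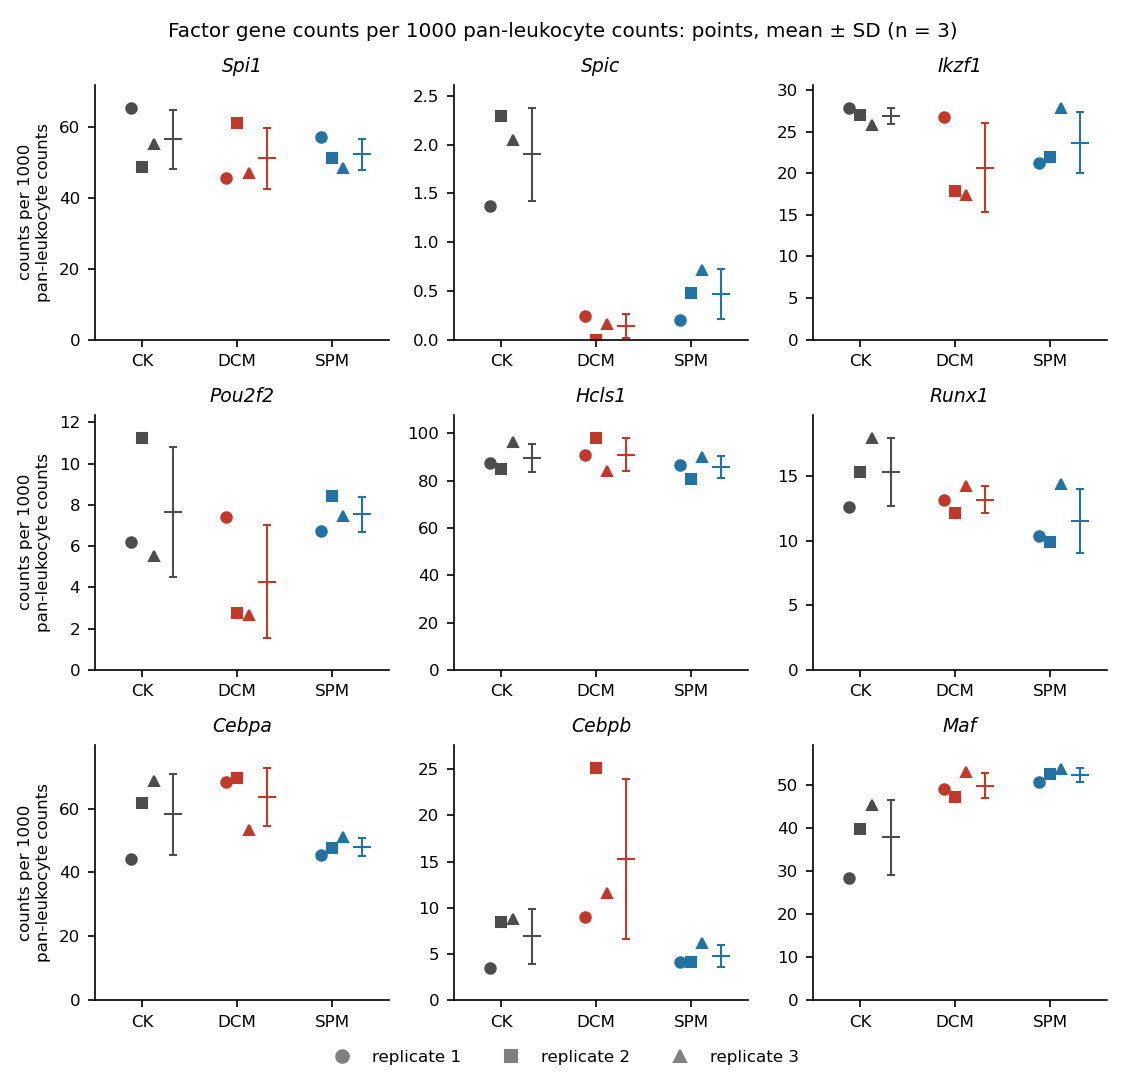
Counts of each gene per 1000 summed counts of the 14 pan-leukocyte genes (vertical axes, linear, from 0) in CK, DCM and SPM. Points are libraries shaped by replicate number and bars are mean ± SD (n = 3). Spi1, Ikzf1, Pou2f2, Hcls1 and Runx1 overlapped between all groups, whereas Spic stood at 1.37 to 2.29 in CK and at 0.718 or less elsewhere.

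Relatives and partners of the 9 genes were read from 11 lists. Of 74 distinct genes, 69 were in the matrix and the others were not analysed here. In DCM compared to CK, 2 of 58 tested rose and 3 fell (median log2 fold change -0.14). Of all genes, 2.03% were called higher and 2.31% lower there. Spib (-2.02, adjusted p = 0.0251), a PU.1 relative and a factor of B cells and plasmacytoid dendritic cells, fell, as did Ets1 (-0.62, adjusted p = 1.13e-04), an ETS factor of lymphocytes and endothelium, and Prdm1 (-0.97, adjusted p = 0.0419), which drives plasma cell differentiation. Cebpd, the C/EBP gene of the acute phase, rose by 0.64 (adjusted p = 2.90e-03), from 37.9 ± 6.10 to 58.8 ± 3.45 CPM (n = 3). Nr4a1, an immediate-early nuclear receptor, rose by 0.68 (adjusted p = 0.0439). Of these 5, only Ets1 was called under every alternative and with each library left out. Cebpd was lost without CK replicate 1 and with limma on log2 FPKM, which called Ets1 alone. With a library left out, Spib was called in 2 of 6 fits (lost without CK replicate 1 or 2 or DCM replicate 1 or 3), Nr4a1 in 2 (lost without CK replicate 3 or any DCM library, and with DESeq2 or all 9 libraries in one fit) and Prdm1 in 1 (without CK replicate 3).

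Of 57 tested in SPM compared to DCM, 1 rose and 2 fell (median 0.08), where 2.7% of all genes were called higher and 0.89% lower. All 3 calls were lost without SPM replicate 2, without DCM replicate 1 or 2, with the GC correction and with limma. Runx1t1, a corepressor known as a fusion partner of RUNX1, rose by 0.63 (adjusted p = 0.0213), Ikzf4 fell by 1.28 (adjusted p = 0.0246), and Nr4a1 fell by 0.84 (adjusted p = 0.0254). Against CK, 2 of 57 rose in SPM and 8 fell (median -0.03), where 5.08% of all genes were called higher and 4.12% lower. Cebpd rose by 0.76 (adjusted p = 4.79e-03) and Spib fell by 2.36 (adjusted p = 7.02e-03), and these were the calls that held without SPM replicate 2 and with every other library left out. Tox, a factor of T cells, rose by 1.28 (adjusted p = 0.0195). Ets1 (-0.59), Ikzf4 (-1.41), the OCT coactivator Pou2af1 (-1.51), the B cell factor Pax5 (-1.66), the T cell factor Bcl11b (-0.999), the dendritic cell factor Batf3 (-1.19) and Klf4 (-0.59) fell, with adjusted p-values between 4.20e-03 and 0.0337.

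By list, the ETS factors (most abundant Ets1 and Erg) gave 2 calls of 8 in each comparison with CK, and the Ikaros family (Ikzf3 and Ikzf4) 1 call of 3 in each comparison with SPM. The octamer factors (Pou2f1 and Pou2af1) gave 1 of 2 in SPM compared to CK, the RUNX group (Cbfb and Runx1t1) 1 of 4 in SPM compared to DCM, and the C/EBP family (Cebpd and Cebpg) 1 of 4 in each comparison with CK. The MAF family (Mafk and Mafg, 7 tested), the stem and erythroid factors (Gata2 and Tal1, 3 tested) and the partners and relative of HCLS1 (Actr3 and Cttn, 7 tested) gave none in any comparison. The myeloid and dendritic factors (Nr4a1 and Klf4) gave 1, 1 and 2 calls of 7. The B cell factors (Ebf1 and Bcl6) gave 2, 0 and 2 of 7.

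The 3 genes with the most similar pattern over the 9 libraries, by Pearson r of log2 CPM, are given as a description. The libraries share groups and depth, and ranking by Spearman's rho kept at most 1 of the 3 for each gene. For Spi1 they were Sirpa (0.97), Pip4k2a (0.96) and H2-Q5 (0.96). For Spic they were Fam198b, Tbc1d31 and Slc7a7 (0.98 each), and for Ikzf1 Unc13d (0.98), Itgax (0.97) and Arhgap4 (0.97). Hcls1 was followed by Tlr2, Rac2 and Themis2 (0.97 each), Pou2f2 by Tsg101-ps (0.99), Mx1 (0.96) and Arhgap4 (0.95), and Runx1 by Klf3, Samd5 and Pdia5 (0.98, 0.97 and 0.97). Sirpa, Itgax, Tlr2 and Rac2 are known from myeloid cells. Cebpa was followed by Mpp1 (0.98), Gm43305 (0.96) and Nlrp1c-ps (0.93), Cebpb by Fbxl2 (0.93), Ube2r2 (0.91) and Ripk4 (0.91), and Maf by Nup54, Kdm6a and Mir99ahg (0.98 each). Among the 9 genes themselves, r was highest between Spi1 and Hcls1 and between Ikzf1 and Pou2f2 (0.94 each), and that of Cebpb with the other 8 lay between -0.76 and -0.29.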

How the data were processed

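RNA was measured in 9 libraries, 3 each of CK, DCM and SPM, grouped by their deposited labels. The deposited values are whole-number counts of each gene and, by the authors' scaling of those counts to gene length and library total, FPKM. The gene length implied by count, library total and deposited FPKM differed between libraries by at most 8.59e-13 of its mean. The methods name fastp 0.18.0 for read filtering. The submitters' processing notes name Bowtie 0.12.2, mm8 and mm9, without saying which served these files, and the counting tool is not given in the sources used here. Gene symbols and coordinates came from GENCODE M21 (GRCm38) by Ensembl identifier, which matched 22844 of 22851.

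Counts gave all tests, and FPKM gave levels between genes. Normalized CPM is the count scaled by the library's total and TMM factor. Each pair of groups (6 libraries) was fitted with edgeR 4.0.16 (quasi-likelihood test, R 4.3.3) after filterByExpr and TMM, with p adjusted over all genes tested (Benjamini-Hochberg), and all 3 groups by the same test with 2 coefficients. The SE is the log2 fold change divided by the square root of F. The common biological coefficient of variation was 0.122. The steps were tested on simulated data. Ratios of summed Spic counts have exact 95% intervals. Tables were built in Python 3.11.15 with pandas 2.3.3, numpy 2.4.6 and scipy 1.17.1, and figures with matplotlib 3.10.9.

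The 9 genes, the 16 marker lists, the 11 factor lists and the motifs were chosen with earlier results of these data known. One marker list is given in part, by genes named after their values were seen, and one factor list is not reported here. Named were all 9 genes, the 2 most abundant genes of each list, each factor gene called in a comparison, and the 3 genes most like each of the 9. Other genes named beside a count were chosen after their values were seen. Replicate numbers did not pair libraries (residual correlations of -0.0746 to 0.205 for the same number and -0.284 to 0.217 for other numbers). Alternatives were other fold limits (1.3 or none), each library left out in turn, RLE, no filter on low counts or 1 CPM in 3 libraries, a GC correction (lowess span 0.3), DESeq2 1.42.0, limma 3.58.1 on log2 FPKM with 0.1 added, a replicate block, and a joint fit to all 9 libraries. The Spic ratios without SPM replicate 2 were added after seeing the data.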

Additional observations from a re-analysis of the deposited data

How the results depend on the processing

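With 3 libraries a group and SPM replicate 2 in doubt, the calls on these genes are close to their limits. Of the 414 values of single genes under an alternative, 343 kept their direction and side of the limits, 30 passed newly, 28 no longer passed and 13 changed sign. Genes of the 9 called in DCM compared to CK were 2, and became 4 without the filter on low counts, 1 with at least 1 CPM in 3 libraries, where Spic was not tested, 4 with all 9 libraries in one fit, and 1 to 4 with a library left out. Those fits called 857 of 22105, 608 of 12650, 680 of 14909 and 427 to 704 of all genes, against 625 of 14402. In SPM compared to DCM 3 of the 9 were called, and 5 with DESeq2, 1 with limma on log2 FPKM and 0 to 4 with a library left out. Of all genes these fits called 600 of 21917, 379 of 15381 and 56 to 791, against 521 of 14493. In SPM compared to CK 1 of the 9 was called, and 2 with no fold limit or one of 1.3. None was called with the CPM filter or with DESeq2, and 0 to 2 with a library left out. Of all genes these fits called 3989 and 2532 of 14574, 1246 of 12738, 1451 of 21933 and 771 to 1589, against 1342. The test over 3 groups passed 6, and 2 to 7 with a library left out (2 without DCM replicate 2 or 3), Spic included each time. Of all genes it passed 4771, and 2332 to 4574 with a library left out.

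The replicate block gave 3, 4 and 1 called of the 9 and 6 in the test over 3 groups, and 568, 610 and 1282 of all genes against 625, 521 and 1342. The replicate numbers share only a number, so the block is no paired analysis. Under the block Ikzf1 passed in DCM compared to CK and Ikzf1 and Pou2f2 passed in SPM compared to DCM, where Cebpb did not.

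Signs changed only for values that were not called. With a library left out, Maf in DCM compared to CK ran from -0.21 to 0.034, above 0 without DCM replicate 2. In SPM compared to CK, Spi1 ran from -0.26 to 0.19 (above 0 without CK replicate 1 or SPM replicate 3), Pou2f2 from -0.30 to 0.40 (without CK replicate 2 or SPM replicate 3) and Hcls1 from -0.14 to 0.084 (without CK replicate 1, SPM replicate 2 or SPM replicate 3). In that comparison the GC correction gave 0.13 for Spi1, 0.084 for Pou2f2, 0.12 for Hcls1 and 0.012 for Cebpa, and the replicate block 0.064 for Pou2f2. Calls over all genes moved by over 1.5 times with no fold limit (1497, 2410 and 3989), with a limit of 1.3 (1100, 1299 and 2532), with the GC correction in SPM compared to DCM (124), and in that comparison without DCM replicate 1 (280), DCM replicate 2 (73), SPM replicate 2 (56) or SPM replicate 3 (791), and without SPM replicate 2 in SPM compared to CK (771). Limma on log2 FPKM split the calls 218 higher to 432 lower in DCM compared to CK, against 292 to 333, and 596 to 886 in SPM compared to CK, against 741 to 601. FPKM is scaled to library totals without a TMM factor. Over all genes the median log2 fold change was -0.088 and -0.078 with limma in these comparisons, against -0.002 and 0.002 in the main fits. TMM factors were 1.02 to 1.04 for CK, 0.955 to 0.989 for DCM and 0.966 to 0.970 for SPM in the fits against CK. The part of this scaling in the limma estimates and calls was not tested.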
